A study of Mus musculus with 12 samples.

Results

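The Hox genes of paralog groups 1 to 12 were followed across 12 RNA libraries of mouse rectum. They were taken from the gene table by name, as every row reading Hoxa, Hoxb, Hoxc or Hoxd with a number from 1 to 12 and nothing after it, so that the Hox13 genes and the antisense transcripts of the clusters are left out. This gave 35 of the 27785 genes: 10 of the Hoxa cluster, 9 of Hoxb, 8 of Hoxc and 8 of Hoxd. The libraries fall into 4 groups. Lgr5-Apc (4 libraries, labelled Lgr5creER;APC flox) carries a floxed allele of the tumour suppressor Apc and a tamoxifen-inducible Cre driven from Lgr5, a gene of crypt stem cells. Cdx2-Apc (3 libraries, CDX2creER;APC flox) has the Cre driven from Cdx2, a homeobox gene of the intestinal epithelium. Lgr5-Cdx2-Apc (2 libraries) has both drivers together with the floxed allele. The control group (3 libraries) is titled WT, although its genotype entry names CDX2creER and APC flox followed by WT in brackets. Tamoxifen, given by injection at 25 mg/kg on 5 days, is listed as a treatment for the 3 Apc groups and not for the controls, while a protocol text shared by all 12 samples also names it. The number of floxed alleles, the age, the sex and the strain are not given in the sources used here. The labels do not say whether samples of a group came from separate animals, so the p-values below measure only the spread between these samples.

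Hox genes encode homeodomain transcription factors that give cells their position along the head-to-tail axis of the embryo. They lie in 4 clusters, and within a cluster the genes of low paralog number are expressed from more anterior levels and those of high number from more posterior levels, with the Hox13 genes marking the hind end. In the gut they are expressed largely in the mesenchyme that forms muscle and connective tissue, and also in the epithelium, where Cdx proteins act upstream of several of them. Their proteins bind DNA with partners of the Pbx and Meis families, and Polycomb and Trithorax complexes hold the clusters in the silent or the active state.

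On the GRCm38 (mm10) assembly with GENCODE M21 annotation, the members of Hoxa lie on chromosome 6, and those of Hoxb span chr11:96271457-96368256 (96.8 kb), those of Hoxc chr15:102936757-103036852 (100.1 kb) and those of Hoxd chr2:74675013-74765142 (90.1 kb). All 35 are annotated there as protein-coding genes. Exonic bases are shared with another gene of the same strand in 9 members and with a gene of the opposite strand in 10. The overlap is largest for Hoxd3 (62.3% of its exonic bases, shared with Hoxd4 and Gm28230) and Hoxd4 (52.3%, shared with Hoxd3 and Gm28230). Of Hoxb3, 52.9% lies opposite Hoxb3os. Reads from bases shared on the same strand cannot be told apart by strand. Whether reads were counted by strand is not stated, so reads of genes on opposite strands cannot be told apart either. The levels of all such genes are uncertain.

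Levels are in FPKM (fragments scaled by transcript length and library size), a value per length that can be compared between genes. Summed FPKM over all genes ranged from 451333 to 728495 per library, with 20522 to 22562 genes above 0, and the depth in reads is not known. Apc itself, the floxed gene, was at 15.9 to 18.8 FPKM in the controls, 14.1 to 18.6 in Lgr5-Apc, 15.3 to 17.6 in Cdx2-Apc and 13.5 to 15.0 in Lgr5-Cdx2-Apc, and since a floxed exon leaves the rest of the transcript, this checks the labels only weakly. Columnar epithelial markers were above 0 in all 12 libraries, with Epcam at 65.4 FPKM or more, but at unlike levels. The 8 markers summed to 998 and 181 FPKM in the Lgr5-Cdx2-Apc pair and 3422 to 5429 in the controls. In Lgr5-Cdx2-Apc replicate 2, Vil1 was at 3.21 and Cdh17 at 3.41 FPKM, against 109 to 157 and 95.9 to 149 in the controls. Several libraries differed in other tissues. The 10 squamous keratinocyte markers summed to 10754 and 19526 FPKM in the Lgr5-Cdx2-Apc pair, 16201 and 9081 in Lgr5-Apc replicates 2 and 3, and at most 2860 elsewhere. The 10 smooth muscle markers summed to 102 and 70.1 FPKM in the Lgr5-Cdx2-Apc pair, against 745 to 4636 in the other 10 libraries.

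The Hox genes of a posterior tissue were on in most libraries. The members summed to between 83.7 and 271 FPKM per library, and between 13 and 26 of the 35 reached 1 FPKM. Over the 12 libraries the highest mean in each cluster belonged to Hoxa9 (14.2 FPKM), Hoxb9 (13.0), Hoxd10 (7.41) and Hoxc8 (1.35). Hoxc was thus the low cluster, and in 9 libraries its 8 members together came to 4.46 FPKM or less. The 7 members that did not reach 1 FPKM in at least 2 libraries, and so were not tested, included Hoxc10, Hoxc11, Hoxc12 and Hoxd3. Hoxb1 and Hoxd1, hindbrain genes of the first paralog group, were also among them and stayed at 0.380 FPKM or less in every library.

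**Figure D1:**
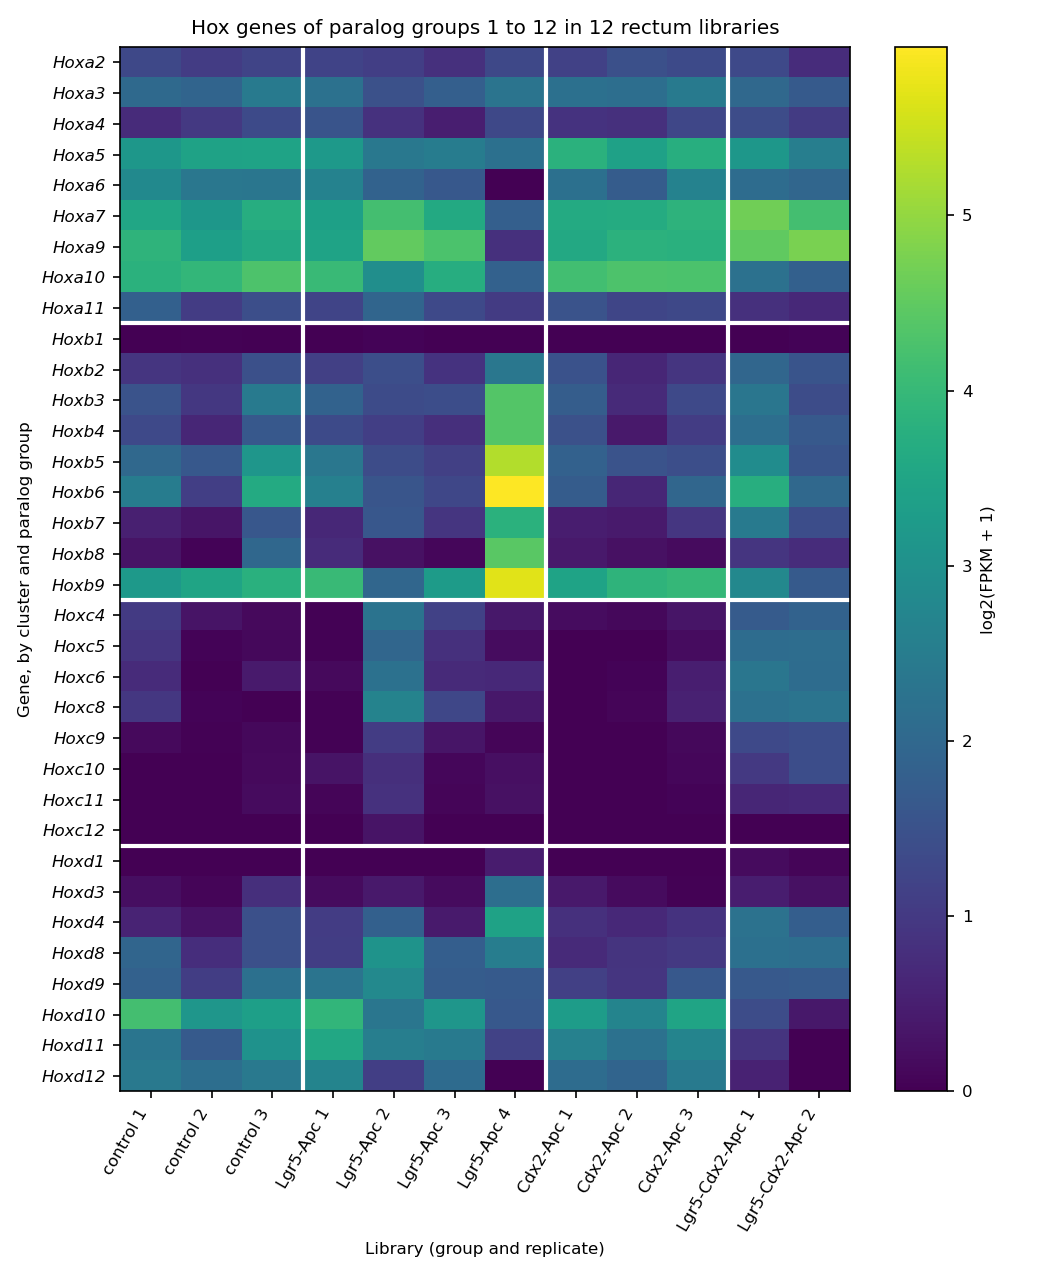
Level of 34 Hox genes (rows, by cluster and paralog group) in each of the 12 libraries (columns, by group and replicate), as log2(FPKM + 1) on the colour scale. The Hoxb rows are brightest in Lgr5-Apc replicate 4, and the Hoxc rows stand out in Lgr5-Apc replicate 2 and in both Lgr5-Cdx2-Apc libraries.

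Lgr5-Apc replicates 2 and 4 stand apart from their group and from each other, which bears on every comparison below. Lgr5-Apc replicate 4 had the highest value of all 12 libraries for 11 members, among them all 8 genes from Hoxb2 to Hoxb9. Hoxb6, a gene of trunk and limb mesoderm, was at 61.3 FPKM there and at 12.2 or less in the other 11 libraries, Hoxb5 at 37.8 against at most 7.82, and Hoxb8 at 20.8 against at most 2.97. The summed Hoxb level was 227 FPKM, 84.0% of all the members' FPKM in that library, against 13.3 to 45.4 elsewhere. The same library was the lowest of the 12 for Hoxa5, Hoxa6 (listed at 0), Hoxa7 and Hoxa9, and its Hoxa sum was 17.6 FPKM against 51.7 to 71.3 in the other 11. It also had Cdx2 at 151 FPKM against at most 30.4 elsewhere, Hoxb13 at 0.924, Hoxa13 at 1.33 and Hoxd13 at 0.395 FPKM, and 10 squamous markers summing to 4.45 FPKM with Ivl, Lor and Dsg3 listed at 0. The part of these differences in tissue make-up in its Hox values was not tested. Lgr5-Apc replicate 2 was the highest of the 12 for 7 members, 4 of them in Hoxc, and its Hoxc sum of 18.7 FPKM lay with the 16.3 and 17.2 of the Lgr5-Cdx2-Apc pair. Because the groups share 1 estimate of the spread, these 2 libraries touch every test. Each Hox result called, and some results not called, are also given with both left out, an alternative chosen after the data were seen. A gene that passes only that way is not counted as called. Where Lgr5-Cdx2-Apc is compared with control or Cdx2-Apc, the difference itself does not change, as neither library is in those groups. Leaving out libraries picked for standing apart tends to narrow that spread. In Lgr5-Cdx2-Apc against control the share of all genes called then rose from 19.1% to 31.9%. The smaller p-values found that way are therefore no separate support for a result.

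**Figure D2:**
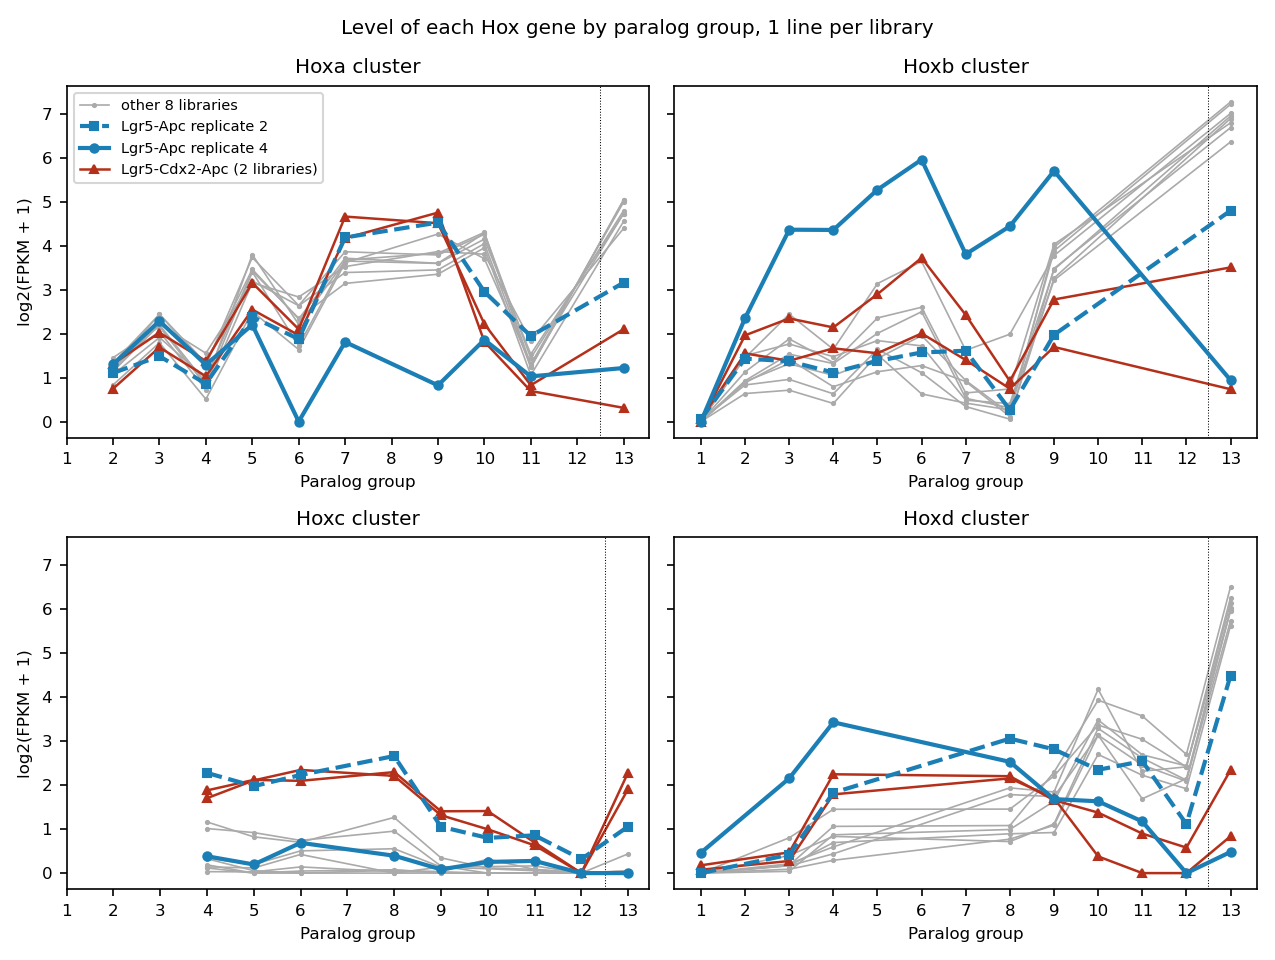
Level as log2(FPKM + 1) against paralog group for each cluster, with 1 line per library; the dotted line sets off group 13, and not every paralog number has a point in each cluster. Lgr5-Apc replicate 4 runs far above the others from Hoxb2 to Hoxb9 and below them from Hoxa6 to Hoxa9, and the Lgr5-Cdx2-Apc pair is above all libraries but Lgr5-Apc replicate 2 at Hoxc4 to Hoxc9 and below the rest at Hoxd10 to Hoxd12 except for Lgr5-Apc replicate 4.

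The clearest pattern was in the group with both drivers. In Lgr5-Cdx2-Apc against control, 3 genes of the middle of Hoxc rose (Hoxc5, Hoxc6 and Hoxc9) and 3 posterior genes of Hoxa and Hoxd fell (Hoxa10, Hoxd10 and Hoxd12), so 6 of the 28 members tested, or 21.4%, passed with limma at a Benjamini-Hochberg adjusted p below 0.05. Over all 17360 genes tested in this comparison 19.1% passed, 10.5% higher and 8.55% lower, so the members' share was near that of all genes. With a pseudocount of 0.1 FPKM in place of 1, only Hoxc9 was called higher (adjusted p of 0.0797 for Hoxc5 and 0.0695 for Hoxc6), and Hoxd12 was lost too (0.0674, limma). Of the alternatives that gave a value, the call against control was lost in 10 of 19 for Hoxc5, 6 of 19 for Hoxc6, 4 of 19 for Hoxc9, 4 of 20 for Hoxa10, 2 of 20 for Hoxd10 and 11 of 19 for Hoxd12. All libraries of the pair lay above every control for 11 members (39.3%; 32.1% of all genes) and below every control for 8 (28.6%; 25.3% of all genes). The median difference over the tested members was 0.20 on the log2(FPKM + 1) scale, and 0.07 over all genes. That scale, which adds a pseudocount of 1 FPKM, understates the change of genes at low levels. Because these are bulk tissues, fewer cells of a type and less RNA per cell cannot be told apart in any of the differences that follow.

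Of the 8 members of Hoxc, 5 were tested, of which 3 rose against control and 2, Hoxc4 and Hoxc8, did not pass. Hoxc6 (chr15:102998257-103011881), which helps set the identity of the forelimb-level spinal cord and trunk, was at 0.675, 0 and 0.342 FPKM in the controls, 0.102, 3.70, 0.625 and 0.612 in Lgr5-Apc, 0, 0.0330 and 0.420 in Cdx2-Apc, and 4.09 and 3.28 in Lgr5-Cdx2-Apc. Only Lgr5-Apc replicate 2 overlapped the double-driver pair. Its difference from control was 1.83 ± 0.51 (SE) on the log2 scale, with an adjusted p of 0.0329 by limma. Against Cdx2-Apc the difference was 2.04 ± 0.51 (adjusted p = 0.0198, limma), and against Lgr5-Apc it was 1.28 ± 0.48 (adjusted p = 0.109, limma), which did not pass. Without Lgr5-Apc replicates 2 and 4 the adjusted p for Hoxc6 was 0.00253 against control, 0.00137 against Cdx2-Apc and 0.00588 against Lgr5-Apc.

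Hoxc5 (chr15:102967443-103017429), a gene of the neck and upper trunk, was at 0.895, 0.0390 and 0.0846 FPKM in the controls, 0.0194, 2.94, 0.772 and 0.146 in Lgr5-Apc, 0, 0 and 0.145 in Cdx2-Apc, and 3.32 and 3.35 in the pair. Here both Lgr5-Cdx2-Apc libraries lay above all others, with Lgr5-Apc replicate 2 next. The difference was 1.75 ± 0.50 against control (adjusted p = 0.0372, limma), 2.05 ± 0.50 against Cdx2-Apc (adjusted p = 0.0188) and 1.36 ± 0.47 against Lgr5-Apc (adjusted p = 0.0923). With both libraries left out, Hoxc5 had adjusted p-values of 0.00477, 0.00205 and 0.0113 in the same order by limma. The annotated exons of Hoxc5 share 166 bases with Hoxc10.

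Hoxc9 (chr15:102976439-102985099), a gene of thoracic identity, was at 0.118, 0.0209 and 0.101 FPKM in the controls, 0.0241, 1.08, 0.272 and 0.0606 in Lgr5-Apc, 0, 0 and 0.0998 in Cdx2-Apc, and 1.49 and 1.65 in Lgr5-Cdx2-Apc. No library of another group reached the pair. Hoxc9 was the one member called in all 3 comparisons with the double-driver group by limma: 1.25 ± 0.28 against control (adjusted p = 0.0169), 1.32 ± 0.28 against Cdx2-Apc (adjusted p = 0.0117) and 0.98 ± 0.26 against Lgr5-Apc (adjusted p = 0.0470). The last of these calls was lost in 15 of 19 alternatives, while without both libraries its adjusted p was 0.00489, beside 0.00162 against control and 0.00109 against Cdx2-Apc.

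Hoxc8 (chr15:102990607-102994111), which patterns the thoracic skeleton and is the highest member of its cluster by mean, was at 0.938, 0.0465 and 0 FPKM in the controls, 0.0217, 5.34, 1.41 and 0.316 in Lgr5-Apc, 0, 0.0539 and 0.469 in Cdx2-Apc, and 3.63 and 3.92 in the pair. The highest value of all 12 was therefore in Lgr5-Apc replicate 2. It passed against Cdx2-Apc (2.05 ± 0.64, adjusted p = 0.0437, limma) and not against control (1.92 ± 0.64, adjusted p = 0.0607), and without both libraries Hoxc8 passed in both (adjusted p = 0.00606 and 0.00929). Hoxc4, the most anterior gene of the cluster, was at 2.26 and 2.69 FPKM in the pair and at 0.103 to 1.02 in the controls, and passed in no comparison with all libraries, but without both it passed against control (1.30 ± 0.36, adjusted p = 0.0256, limma) and Cdx2-Apc (adjusted p = 0.0104). Hoxc10 and Hoxc11, which were not tested, were at 0.996 and 1.66 and at 0.550 and 0.622 FPKM in the pair, against at most 0.742 and 0.815 in the other libraries, both in Lgr5-Apc replicate 2. Hoxc12 was listed at 0 in 11 libraries and at 0.247 FPKM in that one.

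Hoxc5, Hoxc6 and Hoxc9 reached 1 FPKM only in the pair and in Lgr5-Apc replicate 2, so the filter on low values let them in through the libraries where they are high. With every gene above 0 tested instead, they passed against control with adjusted p-values of 0.0492, 0.0446 and 0.0144 by limma. The Hoxc difference moved together with skin and muscle markers, whose part in the result was not tested. Called higher against control were 8 of 8 hair follicle markers, 7 of 8 tested skeletal muscle markers and 2 of 10 squamous keratinocyte markers. Over all genes 10.5% were called higher. Without Lgr5-Apc replicates 2 and 4 the marker counts were 8, 8 and 4, where 31.9% of all genes were called in either direction. The hair markers Krt25, Krt27, Krt71 and Krt73 reached 1 FPKM only in the pair, so the filter let them in through the libraries where they are high. The hair follicle markers summed to 162 and 62.9 FPKM in the pair, 19.5 in Lgr5-Apc replicate 2, 0.195 to 10.8 in the other Lgr5-Apc libraries, 0.179 to 2.67 in the controls and 0.243 to 1.54 in Cdx2-Apc. The hair keratin Krt27 was listed at 0 in all 3 controls. The skeletal muscle markers summed to 475 and 566 FPKM in the pair and 504 in Lgr5-Apc replicate 2, the same 3 libraries that were high in Hoxc, against 5.02 to 54.0 in the other 9. The squamous markers were also high in Lgr5-Apc replicate 3, where the Hoxc sum was 4.46 FPKM, and reached 2860 FPKM in control replicate 1, where it was 3.65. These are the next highest Hoxc sums after those 3 libraries, the remaining 7 being at 0.140 to 1.84 FPKM. The 5 adipocyte markers summed to 65.0 and 42.2 FPKM in the pair, 262 in Lgr5-Apc replicate 2 and 4.60 to 32.0 elsewhere, with 0 of 5 called against control, and their part was not tested either.

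**Figure D3:**
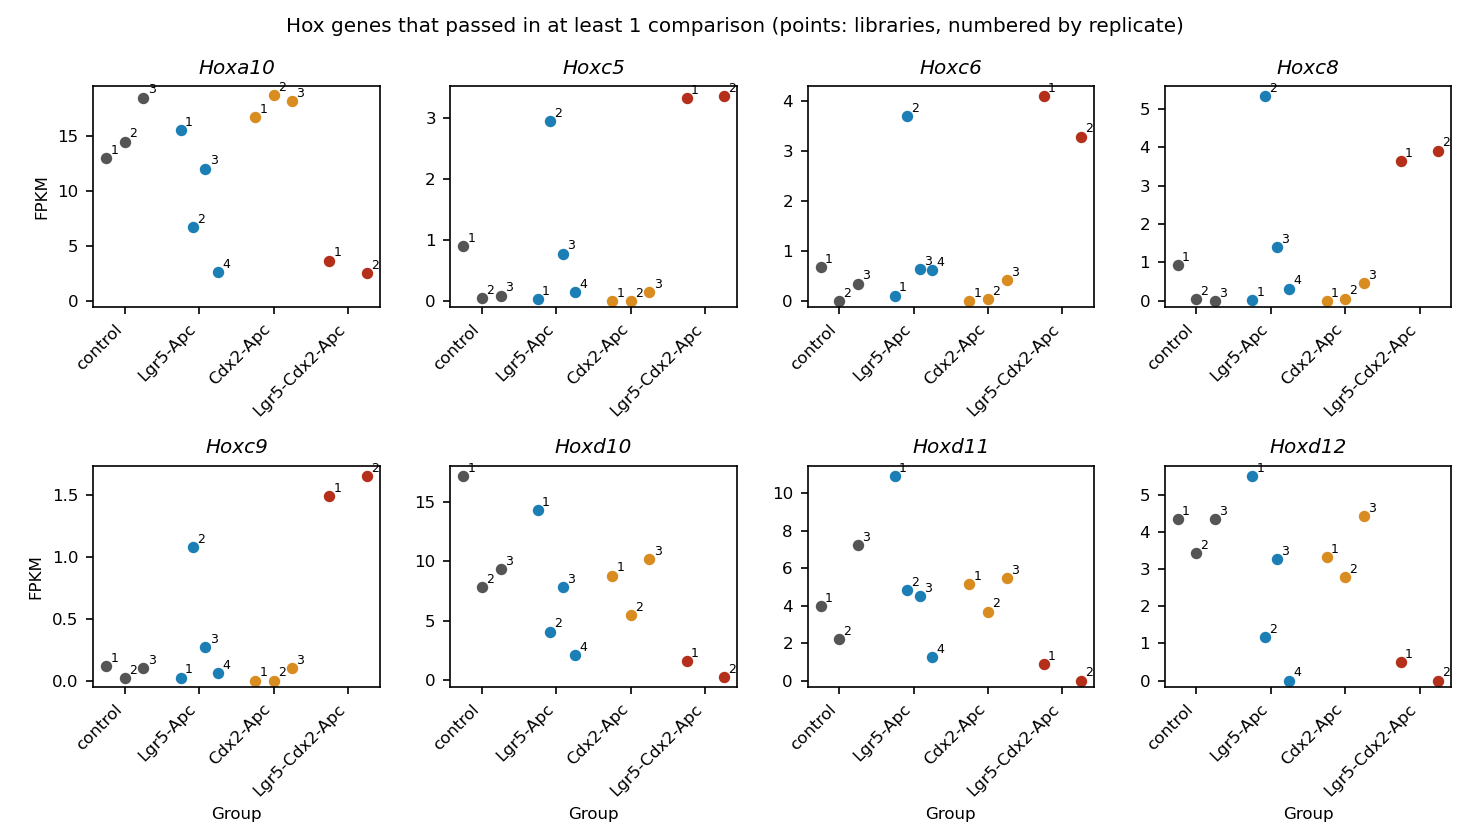
FPKM in every library, numbered by replicate and coloured by group, for the 8 Hox genes that passed in at least 1 comparison; each panel has its own scale starting near 0. The Lgr5-Cdx2-Apc points are high in the Hoxc panels, where Lgr5-Apc replicate 2 joins them, and low for Hoxa10 and Hoxd10 to Hoxd12, where Lgr5-Apc replicate 4 is also low.

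At the posterior end of Hoxa and Hoxd the order was the reverse. Hoxa10 (chr6:52231197-52240854), a gene of lumbar identity and of the uterus, was at 13.0, 14.5 and 18.5 FPKM in the controls, 15.6, 6.75, 12.1 and 2.63 in Lgr5-Apc, 16.8, 18.8 and 18.2 in Cdx2-Apc, and 3.66 and 2.53 in Lgr5-Cdx2-Apc. Controls and Cdx2-Apc lay well above the pair, and Lgr5-Apc ran from one level to the other. Hoxa10 fell by 2.00 ± 0.51 against control (adjusted p = 0.0256, limma) and by 2.22 ± 0.51 against Cdx2-Apc (adjusted p = 0.0152). Without Lgr5-Apc replicates 2 and 4 the adjusted p-values for Hoxa10 were 0.000396 and 0.000264, and 0.00137 against Lgr5-Apc, where the fall was of 1.86 ± 0.22. In FPKM, the group mean was 15.4 ± 2.86 (SD, n = 3) in the controls and 3.09 ± 0.80 (SD, n = 2) in the pair.

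Hoxd10 (chr2:74691924-74695105), which acts in lumbar motor neurons and the limb, was at 17.2, 7.81 and 9.33 FPKM in the controls, 14.3, 4.10, 7.80 and 2.10 in Lgr5-Apc, 8.80, 5.50 and 10.2 in Cdx2-Apc, and 1.60 and 0.301 in the pair. Both values of the pair were below all other libraries. Hoxd10 fell by 2.68 ± 0.61 against control (adjusted p = 0.0176, limma) and by 2.28 ± 0.61 against Cdx2-Apc (adjusted p = 0.0254). Against Lgr5-Apc it was -1.89 ± 0.58 (adjusted p = 0.0659), and did not pass. With both left out Hoxd10 passed in all 3 (adjusted p = 0.00267, 0.00457 and 0.00606, limma).

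Hoxd11 (chr2:74679557-74687016), needed with Hoxa11 for the forearm and kidney, was at 3.98, 2.23 and 7.25 FPKM in the controls, 10.9, 4.85, 4.50 and 1.26 in Lgr5-Apc, 5.14, 3.68 and 5.46 in Cdx2-Apc, and 0.865 and 0 in the pair. It too was lowest in the pair. It passed against Cdx2-Apc (-2.06 ± 0.61, adjusted p = 0.0353, limma), while the values against control (-1.90 ± 0.61, adjusted p = 0.0519) and Lgr5-Apc (-1.99 ± 0.58, adjusted p = 0.0572) lay just past the threshold. Without both libraries Hoxd11 passed in all 3, with adjusted p-values of 0.0101, 0.0159 and 0.00970 by limma. Its annotated exons share 10.8% of their bases with Gm28309, as do 5.73% of those of Hoxd10.

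Hoxd12 (chr2:74675013-74677705), a gene of the digits and the anal sphincter, was at 4.34, 3.43 and 4.34 FPKM in the controls, 5.50, 1.17, 3.26 and 0 in Lgr5-Apc, 3.33, 2.78 and 4.42 in Cdx2-Apc, and 0.495 and 0 in the pair. Lgr5-Apc replicate 4 shared the value of 0 with the second library of the pair. Hoxd12 fell by 2.04 ± 0.62 against control (adjusted p = 0.0448, limma). The difference from Cdx2-Apc, -1.87 ± 0.62, had an adjusted p of 0.0520. Without both libraries Hoxd12 passed in both (adjusted p = 0.00122 and 0.00149, limma) and against Lgr5-Apc (0.00259).

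These posterior genes were low in the pair, as were smooth muscle and columnar markers. The part of those tissues in the result was not tested. Against control, 10 of 10 smooth muscle markers and 7 of 8 columnar epithelial markers were called lower in Lgr5-Cdx2-Apc, beside 8.55% of all genes. The smooth muscle markers, led by Actg2, summed to 3336 to 4130 FPKM in the controls, 745 to 3574 in Lgr5-Apc, 1718 to 4636 in Cdx2-Apc and 70.1 to 102 in the pair. The columnar markers summed to 3422 to 5429, 1136 to 4812, 4665 to 5669 and 181 to 998 FPKM in the same order, and none of either list was listed at 0. In Lgr5-Apc replicate 4 the columnar sum was 4524 FPKM, inside the control range, and the smooth muscle sum 876. Hoxa10, Hoxd10, Hoxd11 and Hoxd12 were at 2.63, 2.10, 1.26 and 0 FPKM there. Lgr5-Apc replicate 2 had a columnar sum of 1136 FPKM and a smooth muscle sum of 745. Hoxd11 was at 4.85 FPKM there, inside the control range, while Hoxa10, Hoxd10 and Hoxd12 were below every control. The enteric neuron markers, from the nerve cells of the gut wall, summed to 3.53 and 2.75 FPKM in the pair, 3.01 in Lgr5-Apc replicate 2 and 20.8 to 52.5 in the controls. Of the 7 tested, 3 were called lower against control (Uchl1, Snap25 and Vip), beside 8.55% of all genes, and their part was not tested. The 8 fibroblast markers summed to 405 and 623 FPKM in the pair, within or near the 161 to 566 of the controls and the 100.1 to 600 of Lgr5-Apc. The Hox13 genes, next in the clusters, split in the same way: Hoxa13 (-3.38 ± 0.94, adjusted p = 0.0347, limma) and Hoxd13 (-4.54 ± 1.38, adjusted p = 0.0447) were called lower against control and Hoxc13 (2.08 ± 0.30, adjusted p = 0.00283) higher. Hoxc13 reached 1 FPKM only in the pair and in Lgr5-Apc replicate 2, so the filter let it in through libraries where it is high. Hoxb13 was at 10.4 and 0.666 FPKM in the pair and 81.4 to 128 in the controls, and was not called.

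**Figure D4:**
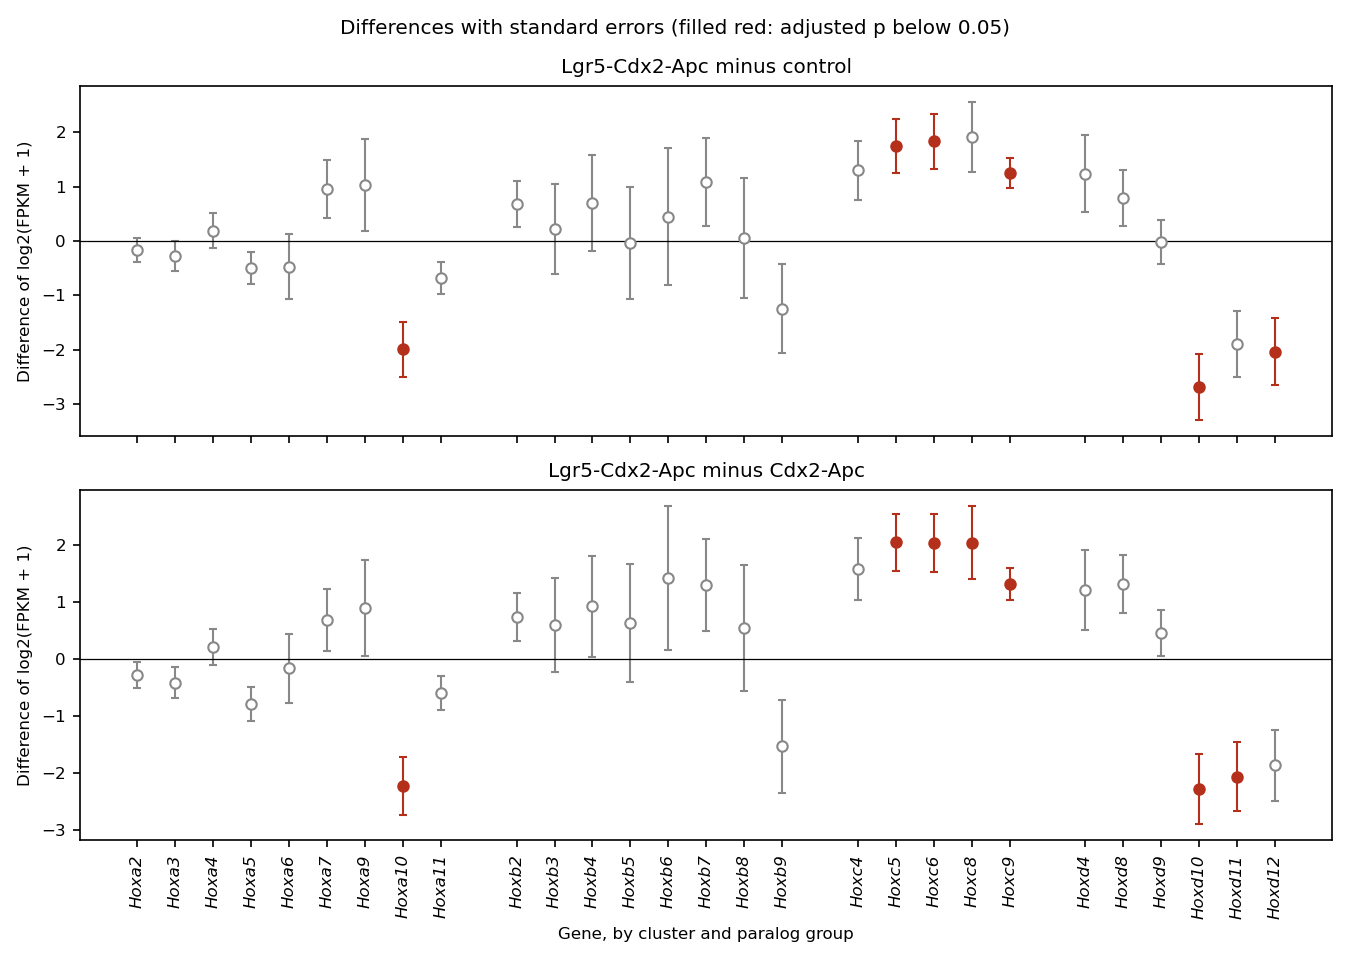
Difference in log2(FPKM + 1) between Lgr5-Cdx2-Apc and control (top) and Cdx2-Apc (bottom) for the 28 tested Hox genes, in cluster order; bars are standard errors from limma and filled red points have an adjusted p below 0.05. The Hoxc points lie above 0 and the points for Hoxa10 and Hoxd10 to Hoxd12 below it in both panels, which share the Lgr5-Cdx2-Apc libraries.

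The promoters of the 4 posterior genes called lower against control or Cdx2-Apc are shown so that their sequence can be set beside those values, together with that of Hoxb8, whose highest level was in Lgr5-Apc replicate 4. RefSeq (GRCm38.p6) windows were found for 20 of the 35 members, in 22 windows, and the 250 bases before the start are printed in lower case, 5′ to 3′ on the strand of the gene. Capitals mark matches to TTTATG, a sequence that Cdx proteins bind, or to TGATTNAT, a Pbx-Hox composite site, searched on both strands. Hoxa10 and Hoxd11 each have 2 windows. The windows are chr6:52240855-52241104 (first) and chr6:52234940-52235189 (second) on the minus strand for Hoxa10, and on the plus strand chr2:74691641-74691890 for Hoxd10, chr2:74679308-74679557 (first) and chr2:74682073-74682322 (second) for Hoxd11, chr2:74674763-74675012 for Hoxd12 and chr11:96281655-96281904 for Hoxb8.
Hoxa10, first window: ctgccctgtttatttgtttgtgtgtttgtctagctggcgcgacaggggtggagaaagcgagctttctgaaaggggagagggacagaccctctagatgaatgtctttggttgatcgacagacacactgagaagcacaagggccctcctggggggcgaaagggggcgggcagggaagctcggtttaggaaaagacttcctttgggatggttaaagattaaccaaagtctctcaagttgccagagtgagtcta
Hoxa10, second window: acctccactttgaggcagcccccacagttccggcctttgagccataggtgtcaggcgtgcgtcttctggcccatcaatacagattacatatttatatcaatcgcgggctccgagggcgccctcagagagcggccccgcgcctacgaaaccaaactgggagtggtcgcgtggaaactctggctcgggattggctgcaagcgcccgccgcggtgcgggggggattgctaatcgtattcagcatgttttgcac
Hoxd10: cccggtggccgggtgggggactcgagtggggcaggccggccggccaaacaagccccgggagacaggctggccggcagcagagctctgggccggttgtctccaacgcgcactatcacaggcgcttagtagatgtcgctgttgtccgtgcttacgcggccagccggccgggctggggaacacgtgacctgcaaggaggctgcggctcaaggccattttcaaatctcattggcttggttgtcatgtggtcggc
Hoxd11, first window: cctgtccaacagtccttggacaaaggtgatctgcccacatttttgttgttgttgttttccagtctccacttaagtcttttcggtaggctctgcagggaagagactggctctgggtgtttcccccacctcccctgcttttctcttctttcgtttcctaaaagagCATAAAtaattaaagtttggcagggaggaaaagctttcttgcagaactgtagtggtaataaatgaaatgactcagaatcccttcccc
Hoxd11, second window: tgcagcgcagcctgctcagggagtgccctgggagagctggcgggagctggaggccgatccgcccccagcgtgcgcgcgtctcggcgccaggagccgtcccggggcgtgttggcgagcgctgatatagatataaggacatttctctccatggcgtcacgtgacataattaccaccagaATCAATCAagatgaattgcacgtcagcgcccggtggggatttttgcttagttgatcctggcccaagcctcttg
Hoxd12: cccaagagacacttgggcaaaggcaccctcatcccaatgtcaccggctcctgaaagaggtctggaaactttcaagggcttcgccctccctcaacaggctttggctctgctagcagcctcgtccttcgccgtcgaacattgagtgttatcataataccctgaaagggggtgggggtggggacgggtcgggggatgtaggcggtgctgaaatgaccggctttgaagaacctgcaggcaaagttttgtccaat
Hoxb8: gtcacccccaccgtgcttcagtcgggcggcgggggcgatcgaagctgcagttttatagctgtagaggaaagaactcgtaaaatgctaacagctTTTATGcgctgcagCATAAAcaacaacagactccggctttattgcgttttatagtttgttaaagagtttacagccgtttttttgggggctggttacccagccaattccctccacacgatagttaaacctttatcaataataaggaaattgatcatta
The Hoxb8 window holds 2 matches to TTTATG, 1 on each strand, the first Hoxd11 window 1 match to TTTATG and the second 1 to TGATTNAT, and the windows of Hoxa10, Hoxd10 and Hoxd12 hold no match to either motif. TTTATG or its complement occurred in 5 of the 22 member windows and in 10.8% of 32851 promoter windows of the same length, and TGATTNAT in 2 of 22 and in 2.82%. The dinucleotide CG occurred 7 and 20 times in the first and second Hoxa10 windows, 20 times for Hoxd10, 2 and 20 times for Hoxd11, 10 times for Hoxd12 and 12 times for Hoxb8, with a median of 12 over the member windows and 6 over all windows. The Hoxa7 window, not printed, also holds 2 matches to TTTATG, while Hoxa7 was at 2.51 FPKM in Lgr5-Apc replicate 4, its lowest library. The Hoxb4 window, not printed either, holds no match, while Hoxb4 was at 19.6 FPKM in that library, its highest. These matches describe letters in the windows and no binding was measured here.

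Of the 9 tested members of Hoxa, 6 had a negative difference from control in the pair and 3 a positive one, and with all libraries Hoxa10 alone passed. Hoxa9, a gene of haematopoietic progenitors and the highest member on average, was at 13.6, 9.22 and 11.1 FPKM in the controls, 9.94, 22.1, 18.3 and 0.771 in Lgr5-Apc, 11.1, 13.2 and 12.8 in Cdx2-Apc, and 21.9 and 26.0 in Lgr5-Cdx2-Apc. It was high in the pair and in Lgr5-Apc replicates 2 and 3, which are the 4 libraries high in squamous markers, and very low in Lgr5-Apc replicate 4. The difference from control of 1.03 ± 0.85 did not pass (adjusted p = 0.402, limma), and neither did that from Cdx2-Apc, 0.89 ± 0.85 (adjusted p = 0.460). Hoxa9 passed in both only without Lgr5-Apc replicates 2 and 4, where the differences are the same and the spread is narrower (adjusted p = 0.0159 and 0.0245, limma). Hoxa7, a thoracic gene beside it, was at 24.4 and 17.1 FPKM in the pair, 17.2 in Lgr5-Apc replicate 2, 11.3 in Lgr5-Apc replicate 3, 13.6 in Cdx2-Apc replicate 3 and 7.84 to 12.2 in the controls (difference 0.96 ± 0.54, adjusted p = 0.219, limma). It passed against control (adjusted p = 0.0113), Lgr5-Apc (0.0253) and Cdx2-Apc (0.0367) with both libraries left out. Hoxa9 and Hoxa10, on opposite sides of the control level in the pair, are neighbours in the cluster. Hoxa5, which promotes differentiation of intestinal epithelial stem cells, was at 7.95 to 10.0 FPKM in the controls, 9.60 to 12.9 in Cdx2-Apc, 3.61 to 8.20 in Lgr5-Apc and 4.85 and 7.92 in the pair. All 4 Lgr5-Apc libraries were below all 3 of Cdx2-Apc, with a difference of -1.07 ± 0.25 and an adjusted p of 0.269 by limma. Hoxa2 to Hoxa4 and Hoxa6, anterior and central genes, kept within 0 to 6.14 FPKM and passed in no comparison. Hoxa11 was at 0.775 and 0.620 FPKM in the pair, below every other library, and at 1.08 to 2.57 in the controls (-0.68 ± 0.30, adjusted p = 0.125, limma), and the pair was also below all controls for Hoxa5 and Hoxa6. Without both libraries Hoxa11 had an adjusted p of 0.0594 against control, and Hoxa5 passed against Cdx2-Apc (-0.79 ± 0.26, adjusted p = 0.0457, limma).

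In Hoxb no member passed in any comparison with all libraries, and the spread within groups was wide. Hoxb9, the most posterior gene of the cluster below Hoxb13 and known from rib and mammary development, was at 8.30, 10.2 and 12.7 FPKM in the controls, 15.4, 2.93, 8.61 and 51.1 in Lgr5-Apc, 9.99, 13.8 and 14.6 in Cdx2-Apc, and 5.86 and 2.25 in the pair. The pair was below all controls and all Cdx2-Apc libraries. The differences were -1.25 ± 0.82 from control (adjusted p = 0.287, limma) and -1.53 ± 0.82 from Cdx2-Apc (adjusted p = 0.189). Hoxb9 passed in both without Lgr5-Apc replicates 2 and 4 (-1.25 ± 0.36, adjusted p = 0.0286, and -1.53 ± 0.36, adjusted p = 0.0114, limma) and against Lgr5-Apc (adjusted p = 0.0331), and Hoxb7 was higher in the pair than in Cdx2-Apc (1.30 ± 0.43, adjusted p = 0.0443). The 2 libraries of the pair differed among themselves in Hoxb6, at 12.2 and 3.02 FPKM, and in Hoxb5, at 6.46 and 1.94. Control replicate 3 had Hoxb6 at 11.5 and Hoxb8 at 2.97 FPKM, against at most 4.66 and 0.242 in the other controls, so the spread was not confined to Lgr5-Apc.

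In the front of Hoxd, Hoxd4 was at 3.75 and 2.46 FPKM in the pair and 0.224 to 1.74 in the controls, and Hoxd8 at 3.61 and 3.46 FPKM against 0.708 to 2.84. Both were above all controls in both libraries, with adjusted p-values of 0.222 and 0.281 by limma. These were 0.0277 and 0.109 without Lgr5-Apc replicates 2 and 4. Hoxd9 was at 2.16 and 2.27 FPKM in the pair, inside the control range of 1.12 to 3.62. The estimated difference from control was thus positive at Hoxd4 and Hoxd8, where it did not pass with all libraries, and negative from Hoxd10 to Hoxd12. Summed by position over all clusters, the posterior genes of groups 9 to 12 were at 40.3 and 37.9 FPKM in the pair and 49.6 to 77.2 in the other 10 libraries. The central genes of groups 4 to 8 made up 61.7% and 54.6% of the members' FPKM in the pair, 65.0% in Lgr5-Apc replicate 4 and 30.6% to 48.9% in the other 9. These sums were not tested.

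**Figure D5:**
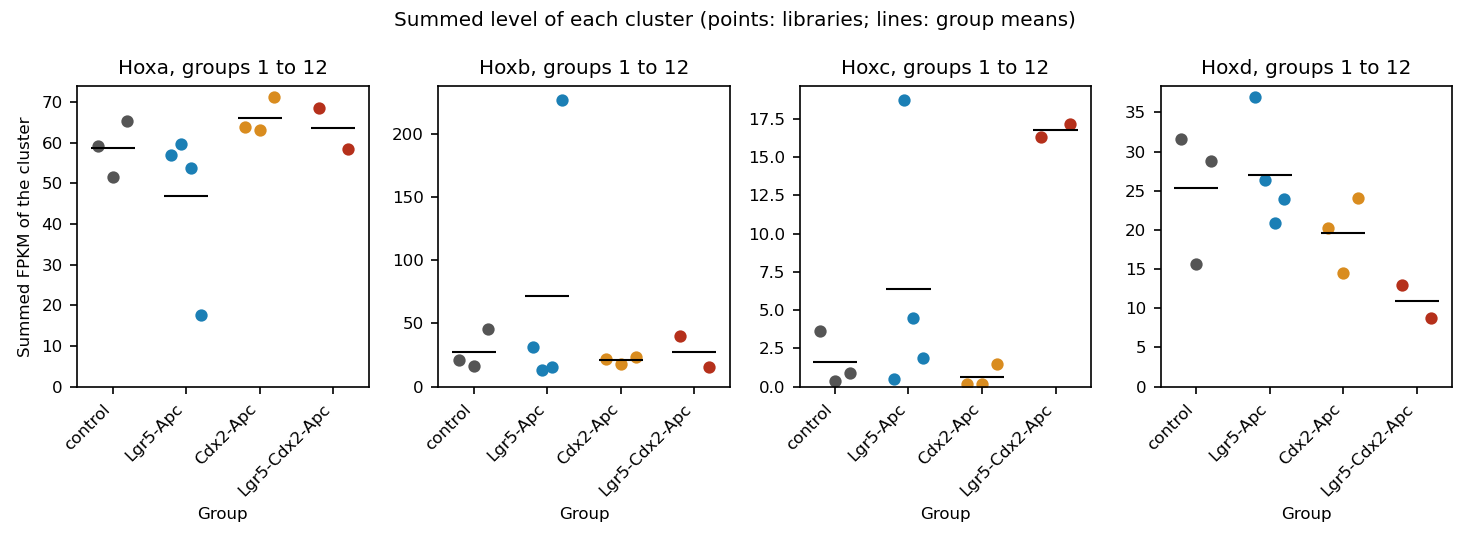
Summed FPKM of the members of each cluster in every library (points), with the group mean (line); each panel has its own scale starting at 0. Hoxc is high in the Lgr5-Cdx2-Apc pair and in Lgr5-Apc replicate 2, Hoxd is lowest in the pair at 13.0 and 8.75 FPKM, and the Hoxb point at 227 and the Hoxa point at 17.6 FPKM are Lgr5-Apc replicate 4.

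Against Cdx2-Apc the double-driver group gave 7 calls among the 28 tested members (25.0%; 23.8% of all genes by the same limma test, 12.1% higher and 11.7% lower): Hoxc5, Hoxc6, Hoxc8 and Hoxc9 higher and Hoxa10, Hoxd10 and Hoxd11 lower. Both libraries of the pair were above all Cdx2-Apc libraries for 15 members (53.6%; 33.4% of all genes) and below them for 8 (28.6%; 30.4%). The median over the members was 0.61 log2 units, and 0.04 over all genes. Against Lgr5-Apc only Hoxc9 passed, 3.57% of the tested members, where 8.99% of all genes did, 5.22% higher and 3.77% lower. The pair was above all 4 Lgr5-Apc libraries for 2 members, Hoxc5 and Hoxc9 (7.14%; 18.1% of all genes), and below them for 3, Hoxa11, Hoxd10 and Hoxd11 (10.7%; 14.9%). These comparisons share the Lgr5-Cdx2-Apc libraries and are not independent of each other.

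Each driver alone gave no call among the members. For Lgr5-Apc against control 0 of 28 passed with limma (0.0115% of all genes, all of them lower), 1 had an unadjusted p below 0.05, which was Hoxa5 (-0.78 ± 0.25, adjusted p = 0.410), and 0 were separated from the controls in either direction (3.96% of all genes higher, 3.96% lower). For Cdx2-Apc against control 0 passed (0.0403% of all genes, 0.0288% higher and 0.0115% lower), 0 had an unadjusted p below 0.05, and 0 were separated (5.88% of all genes higher, 2.7% lower). Between Lgr5-Apc and Cdx2-Apc 0 passed (0.0346% of all genes, 0.00576% higher and 0.0288% lower) and 4 had an unadjusted p below 0.05: Hoxd8 and Hoxd9 higher and Hoxa5 and Hoxa10 lower in Lgr5-Apc, each without overlap of the libraries (4.29% of all genes higher, 6.76% lower). Whether the double-driver group differs from the sum of the single-driver differences was tested as a departure from additivity. In it 0 members passed with limma (1.58% of all genes, 1.19% above and 0.392% below), and 4 had an unadjusted p below 0.05: Hoxc5 (1.66 ± 0.65, adjusted p = 0.193), Hoxc6 (1.49 ± 0.66, adjusted p = 0.232), Hoxc9 (1.05 ± 0.36, adjusted p = 0.158) and Hoxd11 (-2.15 ± 0.79, adjusted p = 0.176).

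The counts rest on few libraries. Without Lgr5-Apc replicates 2 and 4, 13 of the 28 members passed against control (31.9% of all genes tested, limma), 11 against Lgr5-Apc (23.7% of all genes) and 16 against Cdx2-Apc (35.2%), and 7 departed from additivity (13.4% of all genes; Hoxc5, Hoxc6 and Hoxc9 above and Hoxa10, Hoxd10, Hoxd11 and Hoxd12 below). The calls made with all libraries are among them in each comparison. Without control replicate 3, 0 members passed against control, where 5.73% of all genes did. Without control replicate 2 only Hoxd10 passed, where 7.06% of all genes did. With all libraries the share of all genes was 19.1%. Leaving out a Lgr5-Cdx2-Apc library leaves 1 in that group, so only the size is given. The median difference of the tested members from control was then -0.02 without replicate 1 and 0.67 without replicate 2, and 0.20 with all libraries.

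Among the genes that work with or on the clusters, the Pbx and Meis partners mostly did not pass. Of 9 listed, 7 were tested, and against control in Lgr5-Cdx2-Apc 0 were called higher and 1 lower by limma (14.3%, beside 19.1% of all genes): Pbx3, a homeodomain partner of Hox proteins, at 2.56 and 3.08 FPKM in the pair and 7.08 to 10.2 in the controls (-1.25 ± 0.35, adjusted p = 0.0349). Of 6 ParaHox genes, which descend from the same ancestral cluster as Hox, 3 were in the table and 2 tested. Cdx1, a Cdx factor of the intestinal epithelium, was at 54.1 to 120 FPKM in the controls and at 18.5 and 2.15 in the pair. It fell against control (-3.33 ± 0.84, adjusted p = 0.0244, limma) and was called lower against both single-driver groups too. Cdx2 was at 18.5 and 1.44 FPKM in the pair, 2.71 to 22.0 in the controls, 15.7 to 30.4 in Cdx2-Apc and 0.248 to 0.858 in Lgr5-Apc replicates 1 to 3, and was not called in any comparison with all libraries.

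Of 19 Polycomb and Trithorax regulators, all tested, 2 were called higher and 1 lower against control (15.8%; 19.1% of all genes). The Polycomb subunit Cbx2 was among those higher (1.30 ± 0.38, adjusted p = 0.0392, limma), and Phc1 was the one lower (-0.60 ± 0.18, adjusted p = 0.0417, limma). Cbx2 was at 6.73 and 6.59 FPKM in the pair, 6.50 in Lgr5-Apc replicate 2 and 1.69 to 3.88 in the other 9, the same 3 libraries on top as for Hoxc. Kdm6a, which removes the Polycomb mark from histone H3, was at 20.2 and 24.5 FPKM in the pair, 16.4 to 17.3 in the controls, 12.1 to 16.5 in Lgr5-Apc and 8.33 to 10.1 in Cdx2-Apc. It was the one gene of this list called against Cdx2-Apc besides Cbx2 (1.22 ± 0.17, adjusted p = 0.00221, limma) and the one called for its departure from additivity (1.36 ± 0.22, adjusted p = 0.0179). Of 10 genes of retinoic acid and Gdf11 signalling, signals that set Hox boundaries in the embryo, 6 were tested, and 2 were called higher and 1 lower against control (3 of 6, where 19.1% of all genes passed). The receptor Rarg was at 65.0 and 54.8 FPKM in the pair, 53.9 in Lgr5-Apc replicate 2 and 3.36 to 24.4 elsewhere (2.81 ± 0.82, adjusted p = 0.0397, limma). Cyp26b1, which degrades retinoic acid, was at 25.7 and 26.1 FPKM in the pair, 17.1 in Lgr5-Apc replicate 2 and 0.199 to 3.90 elsewhere (4.01 ± 0.80, adjusted p = 0.0118). The receptor Rarb was at 0.0868 and 0.173 FPKM in the pair against 1.23 to 2.76 in the controls (-1.27 ± 0.36, adjusted p = 0.0369). Against Lgr5-Apc, with all libraries, Phc1 was the one gene of these regulators and signals called in the pair (-0.73 ± 0.17, adjusted p = 0.0292, limma). Against Cdx2-Apc, the signalling genes called were Rarg (3.08 ± 0.82, adjusted p = 0.0253, limma) and Cyp26b1 (4.18 ± 0.80, adjusted p = 0.00862). Without Lgr5-Apc replicates 2 and 4, Pbx3, Cdx1, Cbx2, Phc1, Rarg, Rarb and Cyp26b1 again passed against control, with adjusted p-values from 0.000198 for Cyp26b1 to 0.0363 for Phc1 (limma). Against Lgr5-Apc more of these genes then passed, as did 23.7% of all genes. They were 6 of the 19 regulators (5 higher, 1 lower), among them Cbx2, Kdm6a and Phc1, and 1 of the 6 signalling genes, Cyp26b1.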

How the data were processed

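RNA-seq of mouse rectum was deposited as a single table of FPKM values made by the authors, 1 per gene and library; its header names no unit. Per the submitters' processing notes, STAR, Cufflinks and Cuffdiff were used with mm10; versions, annotation and strand setting are not given in the sources used here. RNA was extracted with an RNeasy kit and DNase and made into NEBNext directional libraries, per the labels' protocols. Whole reads could not be recovered from the FPKM, so depth is unknown and no counting interval is given.

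The table's 27831 lines hold 25 names turned into dates and 46 repeated symbols, for which the line of highest mean was kept. No Hox member was repeated. A gene was tested if 2 or more of the 12 libraries reached 1 FPKM, which 17360 did, as log2(FPKM + 1) in 1 model with a term per group (limma 3.58.1, R 4.3.3, moderation with an intensity trend), two-sided, with Benjamini-Hochberg adjustment per contrast and a threshold of 0.05. The script was tested on simulated data. Full values were given for members called in a contrast and for the highest mean of each cluster; the others by range. Some single-gene results are not reported here. Members, gene lists and marker lists were chosen with earlier results of these data known. Alternatives varied the pseudocount, filter, scaling, groups fitted, replicate block and libraries. Same-numbered samples did not deviate together (median r = -0.02 over 15 pairs), and the labels give no pairing.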

Additional observations from a re-analysis of the deposited data

Results flagged for a closer look

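In the Lgr5-Apc group, the one with enough libraries to look for a single library far from the rest, 11 of 34 Hox genes looked at had such a value: the gap to the nearest library, divided by the range of the 4, was above Dixon's critical value for a group of 4. Chance alone gives this in about 1 of 20 groups. In these libraries it was more frequent over all genes, with 18.5% of the 25264 genes that have a range in the group and 9.27% of the 17211 of them that passed the filter on low values.

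Replicate 4 was the high library for 8 of them, and the library set apart in 5.61% of all genes with a range. They were Hoxb3 (19.6 FPKM), Hoxb4 (19.6), Hoxb5 (37.8), Hoxb6 (61.3), Hoxb7 (13.0) and Hoxb8 (20.8), which are neighbours in the cluster, and the anterior genes Hoxd1 (0.380) and Hoxd3 (3.46). The other 3 libraries were at 5.07 FPKM or less in each of these 8. Replicate 2 was the high library for Hoxc6 (3.70 FPKM), Hoxc12 (0.247) and Hoxb1 (0.0383), and it was the one set apart in 5.28% of all genes. For Hoxc12, Hoxb1 and Hoxd1 the other 3 libraries were listed at 0, so any value above 0 gives the largest gap the measure allows.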

How the results depend on the processing

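No member was called in Lgr5-Apc against control, Cdx2-Apc against control or Lgr5-Apc against Cdx2-Apc under any alternative run. For Lgr5-Cdx2-Apc against control (6 with all settings as reported), 2 were called when testing was limited to genes averaging 5 FPKM or more, which leaves 8 members, 10 when only the compared groups were fitted and 13 without Lgr5-Apc replicates 2 and 4; leaving out 1 library gave 0 to 9. For Lgr5-Cdx2-Apc against Lgr5-Apc (1), 3 were called with no filter, 0 at an average of 5 FPKM or more, 3 after quantile normalization, 0 with only the compared groups and 11 without both libraries; leaving out 1 library gave 0 to 9, with 9 without Lgr5-Apc replicate 2, 4 without replicate 4 and 0 without any other. For Lgr5-Cdx2-Apc against Cdx2-Apc (7), the counts were 2, 15 and 16 with the average of 5 FPKM, the compared groups alone and both libraries left out; leaving out 1 library gave 0 to 11, with 11 without Lgr5-Apc replicate 1, 3, 2 and 4 without Cdx2-Apc replicates 1, 2 and 3, and 1 and 0 without Lgr5-Cdx2-Apc replicates 1 and 2. The departure from additivity (0) had 7 members without both libraries, and 0 to 3 with 1 library left out (Hoxc5, Hoxc6 and Hoxc9 without Lgr5-Apc replicate 2). Where Lgr5-Cdx2-Apc keeps 1 library, it is assumed to vary like the other groups. The share of all genes called moved too. Against control it was 19.1% as reported, 18.7% at an average of 5 FPKM or more and 22.1% with only the compared groups. Against Lgr5-Apc it was 8.99% as reported, 25.7% and 6.88% without Lgr5-Apc replicates 2 and 4 in turn, and 0.933% with only the compared groups. Against Cdx2-Apc it was 23.8% as reported, 34.7% with only the compared groups and 14%, 8.95% and 12.1% without Cdx2-Apc replicates 1, 2 and 3. The cause of these shifts was not tested.

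With the replicate number as a block, although the numbers pair no samples, Lgr5-Cdx2-Apc against Lgr5-Apc had 4 calls (Hoxa10, Hoxd10, Hoxd11 and Hoxd12 lower). Hoxc9 then had an adjusted p of 0.129 by limma. Against control there were 5 calls, without Hoxc5 (adjusted p = 0.0688, limma) and Hoxc6 (0.0692) and with Hoxd11. Against Cdx2-Apc there were 7, without Hoxc8 (0.0710) and with Hoxd12. The share of all genes called was 3.34% against Lgr5-Apc, 17.3% against control and 23.2% against Cdx2-Apc. Lgr5-Apc replicate 4 is the only library numbered 4, so its block term takes up its whole value. This setting is therefore not separate from leaving that library out. In Lgr5-Apc against control the median difference of the members was 0.006 both ways. Over the single genes called, 186 values under alternatives kept their call, 84 lost it and 0 changed sign. Quantile normalization moved the median of all genes in Lgr5-Cdx2-Apc against control from 0.07 to -0.05, and the tested members then stood at 14 positive and 14 negative differences, from 16 and 12; against Lgr5-Apc they stood at 11 and 17, from 16 and 12, and at 14 and 14 after median-of-ratios scaling. Depth in reads is unknown, so detection limits of the low Hoxc genes could not be set.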
